A study of Mus musculus with 10 samples.

Results

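The 7 genes described here encode the CDK inhibitors of the mouse, the proteins that hold the cyclin-dependent kinases (CDKs) in check and with them the entry of a cell into S phase. They were chosen by symbol, as Cdkn1a, Cdkn1b and Cdkn1c of the Cip/Kip family and Cdkn2a, Cdkn2b, Cdkn2c and Cdkn2d of the Ink4 family. They are 7 of the 33393 genes, and 18 of the 95912 transcripts, in the data. RNA-seq was done on CD34- HSCs (hematopoietic stem cells), bulk samples of bone marrow cells that lack lineage markers, CD34 and Flt3 and carry Sca-1 and c-Kit on their surface. All mice were C57BL/6 and 8 weeks old, and all carried the Reg1flox/flox alleles of the Regnase-1 gene Zc3h12a, which encodes an RNase that degrades mRNA. The control mice had no Cre, whereas the Reg1Δ/Δ mice also carried Vav1-iCre, a recombinase made throughout the blood system and not only in stem cells. The other blood cells of these mice carried the recombinase too, which limits the model. There were 5 samples per genotype, 3 from experiment 1 and 2 from experiment 2, told apart by the sample names.

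In bulk RNA, fewer cells of a type and less RNA per cell cannot be told apart. TPM (transcripts per 1000000, the relative abundance of a transcript corrected for its length) adds up to 1000000 in each library, so the depth of the libraries is unknown. TPM of the targeted gene, Zc3h12a, summed over all its transcripts, was 1.83, 1.28 and 1.60 in the controls of experiment 1 and 1.48 and 6.07 in those of experiment 2. In the Reg1Δ/Δ-labelled libraries it was 3.54, 2.08 and 2.51 and then 10.3 and 8.52, higher than in every control of the same experiment (log2 fold change 0.83 ± 0.28 SE, limma FDR = 0.0314). This call was lost without control replicate 2 (FDR = 0.0595) or Reg1Δ/Δ replicate 1 (0.068) of experiment 1 and without Reg1Δ/Δ replicate 1 (0.0768) or 2 (0.0662) of experiment 2, the direction being the same. It was also lost with no filter (FDR = 0.0897), no covariate (0.214) and the replicate block (0.0505), and in experiment 1 alone (0.0527) and experiment 2 alone (0.265), again with the same direction. The loss of the floxed part of the transcript cannot be read from a TPM of the whole gene, so these values do not check the labels, and directions are given by label throughout. Of the markers of the sort, Kit RNA fell (252 to 89.8 TPM as means of 5 libraries). Ly6a, which encodes Sca-1, was at 88.0 and 222 TPM with an FDR of 0.155. It was called higher without Reg1Δ/Δ replicate 2 of experiment 1 (FDR = 0.0016), with median-of-ratios scaling (0.0482) and in experiment 2 alone (0.0366). Cd34 and Flt3 RNA, whose proteins the sort excludes, were at 142 and 19.4 TPM in the controls and 14.7 and 1.66 in the Reg1Δ/Δ-labelled libraries. Marker RNAs of other blood cells moved with the groups as well. The summed TPM of 10 B-lineage markers was 183 to 1589 in the controls and 2.75 to 24 in the Reg1Δ/Δ-labelled libraries, with 8 of 8 tested markers lower, and that of 13 neutrophil and monocyte markers was 3590 to 12320 and 385 to 1260, with 10 of 13 lower. Of 8 T-lineage markers, 2 were tested and both fell, the sum being 32.4 to 60.1 and 2.61 to 5.44 TPM. All 6 tested megakaryocyte markers of 8 fell (164 to 611 and 26.1 to 111 TPM), and of 10 erythroid markers 5 fell and 4 rose (3413 to 8397 and 7380 to 9273 TPM). No marker of these lists was at 0 in all libraries, and the lowest B-lineage sum of a control, 183 TPM, belonged to replicate 1 of experiment 1. Over all tested genes 37.9% were lower and 15% higher. The part of these cell types in the values below was not tested.

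CDK inhibitors work at the G1 phase of the cell cycle. The Ink4 proteins (p16, p15, p18 and p19) bind Cdk4 and Cdk6 and keep the D cyclins from activating them, whereas the Cip/Kip proteins (p21, p27 and p57) bind whole cyclin-CDK complexes and mainly inhibit Cdk2 with its E and A cyclins. With the kinases inhibited, Rb and its relatives stay unphosphorylated and hold the E2F factors, and the cell remains in G1 or leaves the cycle into G0. Stem cells of the adult marrow are mostly in G0, and p57 in particular is known for keeping them there.

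The Cip/Kip genes were also the object of qRT-PCR in the study. The primers are shown because they fix which of the transcripts below such an assay can read.
p21 (Cdkn1a) forward: tgtcttgcactctggtgtctgagc
p21 (Cdkn1a) reverse: tcttgcagaagaccaatctgcg
p27 (Cdkn1b) forward: agtgtccagggatgaggaagcgac
p27 (Cdkn1b) reverse: ttcttgggcgtctgctccacagtg
p57 (Cdkn1c) forward: caggacgagaatcaagagcag
p57 (Cdkn1c) reverse: gaagaagtcgttcgcattgg
Searched against the transcript sequences of GENCODE M21, both p21 primers matched all 3 Cdkn1a transcripts in the data, with a product of 132 bases, and both p27 primers matched all 3 Cdkn1b transcripts, with a product of 130 bases. Both p57 primers matched 3 of the 5 Cdkn1c transcripts, with a product of 111 bases.

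RefSeq promoters of the GRCm38.p6 assembly were matched by symbol for 6 of the 7 genes, with 9 start sites. The gene not matched was Cdkn1c. The 250 bases before the start are shown for Cdkn1a, Cdkn1b and Cdkn2d, 3 of the 4 genes whose RNA fell, 5′ to 3′ on the strand of the gene. Cdkn1a has a pair of start sites, and the shares of TPM estimated for their transcripts differed between the experiments. The use of the starts themselves was not measured. At its upstream start (chr17:29090729-29090978, plus strand) the capitals mark a p53 response element, made of 2 adjoining decamers with at most 1 mismatch, which lies 51 bases before the start.
Cdkn1a, upstream start: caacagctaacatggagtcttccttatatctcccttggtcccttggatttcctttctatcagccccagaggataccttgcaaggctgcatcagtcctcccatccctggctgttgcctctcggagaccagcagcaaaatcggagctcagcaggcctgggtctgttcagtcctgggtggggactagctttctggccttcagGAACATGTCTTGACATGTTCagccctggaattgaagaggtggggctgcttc
At its downstream start (chr17:29093519-29093768, plus strand) the capitals mark GC boxes, the motif GGGCGG on either strand.
Cdkn1a, downstream start: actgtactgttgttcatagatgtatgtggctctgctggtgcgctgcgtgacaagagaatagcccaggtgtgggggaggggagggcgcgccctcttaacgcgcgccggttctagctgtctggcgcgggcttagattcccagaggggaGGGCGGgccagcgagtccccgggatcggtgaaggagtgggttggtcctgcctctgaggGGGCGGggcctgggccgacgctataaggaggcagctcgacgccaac
The promoters of Cdkn1b (chr6:134920151-134920400, plus strand) and Cdkn2d (chr9:21291210-21291459, minus strand) are shown with their GC boxes in capitals. The Cdkn2d window lies before its RefSeq start, but the GENCODE transcripts Cdkn2d-203 and Cdkn2d-202 begin within it, at 21291308 and 21291407. Part of the window is thus transcribed sequence of these transcripts.
Cdkn1b: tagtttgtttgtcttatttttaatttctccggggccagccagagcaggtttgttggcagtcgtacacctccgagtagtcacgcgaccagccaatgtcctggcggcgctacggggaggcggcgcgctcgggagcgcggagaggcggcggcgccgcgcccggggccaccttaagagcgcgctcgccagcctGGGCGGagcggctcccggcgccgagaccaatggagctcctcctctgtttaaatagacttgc
Cdkn2d: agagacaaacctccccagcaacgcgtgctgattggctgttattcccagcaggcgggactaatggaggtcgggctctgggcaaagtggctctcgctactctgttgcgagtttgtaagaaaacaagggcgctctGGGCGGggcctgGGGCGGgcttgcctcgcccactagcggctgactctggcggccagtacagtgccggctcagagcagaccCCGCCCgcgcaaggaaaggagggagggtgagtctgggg
Over both strands, the GC box was in 32.7% of all 32851 promoter windows of this length and the p53 response element, searched on these terms, in 0.0578%. The terms for the p53 element were fixed after the windows were seen, so this percentage is not that of a search set beforehand. Other motifs searched were GATAA (22.6% of windows), the E-box CAGATG (14.4%) and the FOXO motif GTAAACA (3.17%), and none of the 9 windows of these genes held one of them. The matches in capitals do not overlap, and a match describes the letters only.

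Of the 7 genes, 5 passed the filter on low values (1 TPM or more in 5 or more of the 10 libraries). Of these 5, Cdkn1a, Cdkn1b, Cdkn1c and Cdkn2d were lower in the Reg1Δ/Δ-labelled libraries and Cdkn2c did not pass the test (FDR under 0.05 in a limma fit of log2(TPM + 1) that had the experiment as its covariate). None was higher, also at an unadjusted p under 0.05. In the background, 37.9% of the 12874 tested genes were lower and 15% higher, and all tested genes had a median log2 fold change of −0.255. The same 4 genes did not overlap between the groups within either experiment, as was so for 31.4% of the tested genes. The median log2 fold change of the 5 genes was −2.12, and 3 of the 5 were under −2, against 7.01% of the tested genes. Counted from the lowest fold change, Cdkn1c stood at rank 170 of 12874 (1.32%), Cdkn1a at rank 507 (3.94%), Cdkn2d at rank 767 (5.96%), Cdkn1b at rank 2790 (21.7%) and Cdkn2c at rank 7038 (54.7%). The split of lower and higher calls over all genes depends on the scaling. With median-of-ratios scaling 25.2% of genes were lower and 33.7% higher, with quantile normalization 20.5% and 30%, and the median of all genes was 0.10 and 0.14. Cdkn1a, Cdkn1c and Cdkn2d were lower under both. Relative to the median of all genes, Cdkn1a was at −2.25 without rescaling, −2.27 with median-of-ratios scaling and −2.001 with quantile normalization, and Cdkn1c at −3.03, −3.08 and −2.83. Cdkn2d was at −1.87, −1.83 and −1.91 and Cdkn1b at −0.72, −0.80 and −0.46, where the call of Cdkn1b was lost with quantile normalization (FDR = 0.243).

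**Figure D1:**
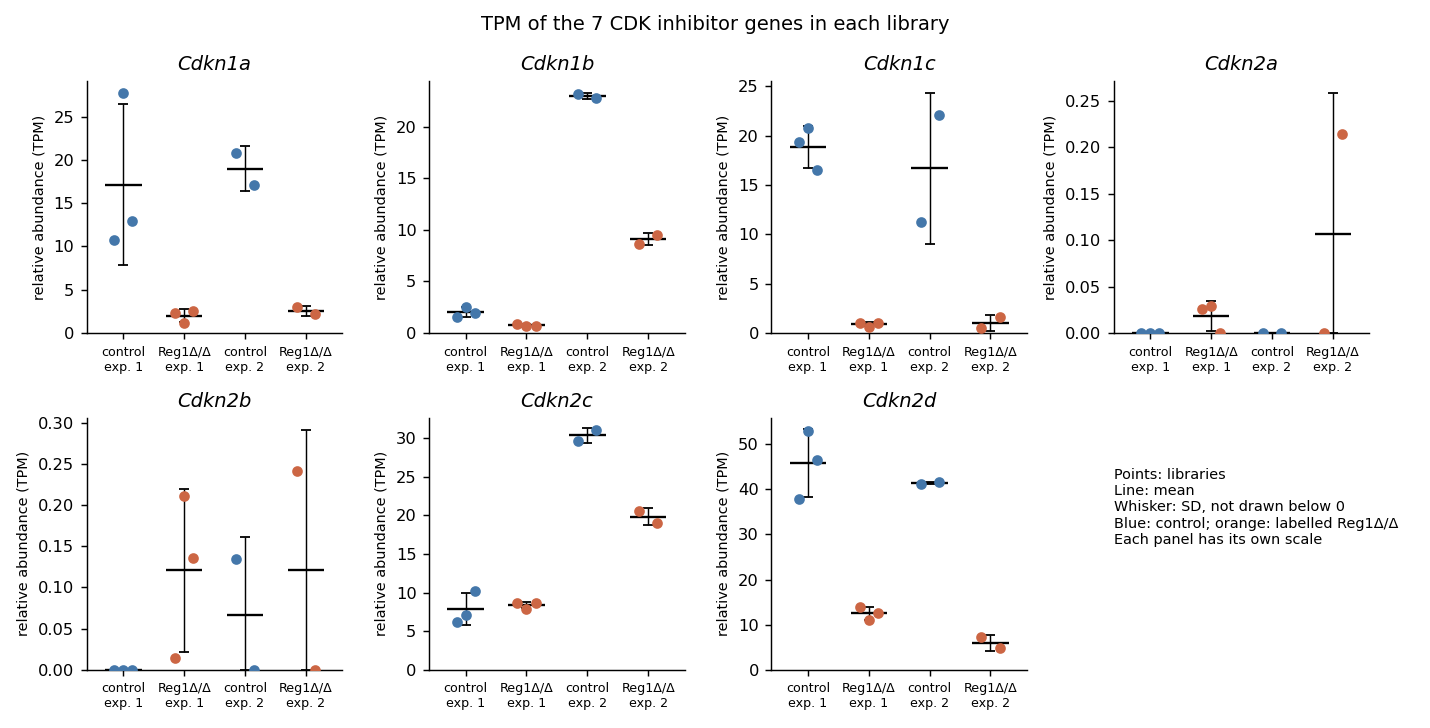
TPM of each of the 7 genes (vertical axes, each with its own scale) in the 4 groups of libraries (horizontal axes), with points for libraries, lines for means and whiskers for the SD. The points of the Reg1Δ/Δ-labelled libraries lie below those of the controls of their experiment for Cdkn1a, Cdkn1b, Cdkn1c and Cdkn2d, lie among them for Cdkn2c in experiment 1, and Cdkn2a and Cdkn2b stay under 0.25 TPM.

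Cdkn1c (ENSMUSG00000037664, GRCm38 chromosome 7, 143458339 to 143461050, minus strand) encodes p57 and is imprinted, being expressed from the maternal allele. In the controls its TPM was 19.3, 20.8 and 16.6 in experiment 1 and 11.3 and 22.1 in experiment 2. In the Reg1Δ/Δ-labelled libraries it was 1.01, 0.639 and 1.03 in experiment 1 and 0.468 and 1.58 in experiment 2. The lowest control was thus well above the highest Reg1Δ/Δ-labelled library in each experiment. The mean was 21.1-fold lower in experiment 1 (18.9 ± 2.13 against 0.893 ± 0.22 TPM, SD, n = 3) and 16.3-fold lower in experiment 2 (16.7 ± 7.66 against 1.02 ± 0.785 TPM, SD, n = 2). On the log2(TPM + 1) scale, which understates the change of low genes, the change was −3.28 ± 0.21 (SE, limma FDR = 2.02e-06), and an exact two-sided permutation test within experiments gave p = 0.0167, the smallest it can give with 120 assignments. The call was lost when experiment 2 was fitted alone, with 2 against 2 libraries (−3.11, limma FDR = 0.0569). An antisense gene on the other strand, Gm44732, shares 892 bases with Cdkn1c and had a mean of 0.396 TPM in the controls and 0.0375 in the Reg1Δ/Δ-labelled libraries. Whether reads were counted by strand is not given in the sources used here.

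Cdkn1c lies in an imprinted domain with other genes, and 11 of these were looked at as neighbors. Of the 7 tested, 3 fell, namely Osbpl5 (8.21 ± 3.08 to 0.493 ± 0.304 TPM, SD, n = 5), Slc22a18 (4.86 ± 0.543 to 1.48 ± 0.562 TPM) and Phlda2 (9.90 ± 3.77 to 4.18 ± 2.24 TPM). Osbpl5 encodes a lipid transfer protein, Slc22a18 a membrane transporter and Phlda2 a growth-restraining protein of the placenta. The call of Phlda2 (limma FDR = 0.0231) was lost in each of 4 fits that left out 1 library, namely control replicate 3 (FDR = 0.0549) and Reg1Δ/Δ replicate 1 (0.0575) of experiment 1 and control replicate 1 (0.0518) and Reg1Δ/Δ replicate 2 (0.0539) of experiment 2. It was also lost with no filter (0.0739), under both scalings (0.47 with quantile normalization and 0.0924 with median-of-ratios) and in each experiment alone (0.194 and 0.112), and that of Slc22a18 with quantile normalization (0.055). Cd81, Tssc4, Nap1l4 and Tspan32 did not pass the test and had log2 fold changes from −0.15 to 0.32. The median of the 7 was −0.15, against −0.255 for all tested genes, of which 37.9% were lower. With median-of-ratios scaling 2 of them were lower and 3 higher. The non-coding Kcnq1ot1, whose transcription silences the domain on the paternal allele, was under the filter at 0.493 and 0.27 TPM.

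Cdkn1a (ENSMUSG00000023067, chromosome 17, 29090976 to 29100727, plus strand) encodes p21, the inhibitor that p53 induces after DNA damage. In the controls its TPM was 10.7, 27.8 and 13.0 in experiment 1 and 20.8 and 17.1 in experiment 2. In the Reg1Δ/Δ-labelled libraries it was 2.36, 1.12 and 2.56 in experiment 1 and 2.96 and 2.17 in experiment 2. All 5 were below every control. The means were 8.52-fold lower in experiment 1 (17.1 ± 9.27 against 2.01 ± 0.781 TPM, SD, n = 3) and 7.39-fold lower in experiment 2 (19 ± 2.58 against 2.57 ± 0.56 TPM, SD, n = 2). The log2 fold change was −2.50 ± 0.25 (SE, limma FDR = 3.2e-05; exact permutation p = 0.0167). A gene of unknown kind on the other strand, AC167363.2, shares 1046 bases with Cdkn1a and is not listed in the data.

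Cdkn1b (ENSMUSG00000003031, chromosome 6, 134920401 to 134925513, plus strand) encodes p27, which is controlled to a large part by degradation of the protein. In the controls its TPM was 1.55, 2.57 and 1.97 in experiment 1 and 23.2 and 22.8 in experiment 2. In the Reg1Δ/Δ-labelled libraries it was 0.90, 0.659 and 0.659 and then 8.68 and 9.50. The level thus differed more between the experiments than between the groups, and within each experiment the groups did not overlap. The means were 2.74-fold lower in experiment 1 (2.03 ± 0.511 against 0.739 ± 0.139 TPM, SD, n = 3) and 2.53-fold lower in experiment 2 (23.0 ± 0.3 against 9.09 ± 0.579 TPM, SD, n = 2). The log2 fold change was −0.97 ± 0.13 (SE, limma FDR = 0.000223; exact permutation p = 0.0167). Without the experiment as a covariate the same difference had an FDR of 0.49.

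Cdkn2d (ENSMUSG00000096472, chromosome 9, 21288410 to 21291407, minus strand) encodes p19, not to be mistaken for the p19Arf protein of Cdkn2a. It had the highest TPM of the 7 genes in the controls. These were at 37.9, 52.98 and 46.6 TPM in experiment 1 and 41.2 and 41.6 in experiment 2. The libraries labelled Reg1Δ/Δ were at 13.9, 10.98 and 12.6 TPM in experiment 1 and 7.25 and 4.73 in experiment 2. All 5 were below every control. The means were 3.66-fold lower in experiment 1 (45.8 ± 7.60 against 12.5 ± 1.47 TPM, SD, n = 3) and 6.91-fold lower in experiment 2 (41.4 ± 0.311 against 5.99 ± 1.78 TPM, SD, n = 2). The log2 fold change was −2.12 ± 0.19 (SE, limma FDR = 1.54e-05; exact permutation p = 0.0167).

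Cdkn2c (ENSMUSG00000028551, chromosome 4, 109660876 to 109667189, minus strand) encodes p18. In the controls its TPM was 6.24, 7.10 and 10.2 in experiment 1 and 29.6 and 31.1 in experiment 2. In the Reg1Δ/Δ-labelled libraries it was 8.65, 7.90 and 8.59 in experiment 1, among the controls, and 20.6 and 19.1 in experiment 2, below both controls. The log2 fold change over both experiments was −0.17 ± 0.17 (SE, limma FDR = 0.414; exact permutation p = 0.333). Its direction depends on the processing. It was 0.11 in experiment 1 alone, 0.21 with median-of-ratios scaling and 0.34 with quantile normalization, none of which passed the test. In experiment 2 fitted alone it was −0.59 (FDR = 0.0435), whereas with the spread of both experiments pooled the same −0.59 ± 0.21 had an FDR of 0.0621.

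Cdkn2a (ENSMUSG00000044303, chromosome 4, 89274471 to 89294653, minus strand) and Cdkn2b (ENSMUSG00000073802, chromosome 4, 89306299 to 89311039, minus strand) are neighbors, and both were at or near 0. Cdkn2a was listed at 0 in all 5 controls and at 0.0262, 0.0288, 0, 0 and 0.214 TPM in the Reg1Δ/Δ-labelled libraries. The transcript analysed was Cdkn2a-202, whose start at 89294653 is that of the p19Arf transcript. The transcript that starts at 89282192 and encodes p16 was not analysed here. Cdkn2b, which encodes p15, was at 0, 0, 0, 0.134 and 0 TPM in the controls and at 0.0148, 0.211, 0.135, 0.242 and 0 in the Reg1Δ/Δ-labelled libraries. The groups overlapped for both genes, with an exact permutation p of 0.2 for Cdkn2a and 0.1 for Cdkn2b. Of their neighbors on the chromosome, Mtap, an enzyme of the methionine salvage pathway, was at 19.4 ± 2.38 and 19 ± 2.05 TPM (SD, n = 5; log2 fold change −0.03, limma FDR = 0.838). It was at 0.35 and called higher with quantile normalization and at 0.37 and called higher with median-of-ratios scaling. Dmrta1 was at 0.0155 and 0.0309 TPM and was not tested.

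The fold changes of the members were compared between the experiments. In experiment 1 Cdkn1a, Cdkn1b, Cdkn1c and Cdkn2d had log2 fold changes of −2.51, −0.79, −3.39 and −1.79, and in experiment 2 of −2.49, −1.25, −3.11 and −2.62, each with a limma FDR under 0.05 when the spread of both experiments was pooled (37.4% and 22.9% of all tested genes were lower). The difference between the experiments was −0.84 ± 0.29 (SE) for Cdkn2d and −0.70 ± 0.27 for Cdkn2c, and neither passed the test of the difference (limma FDR = 0.297 and 0.338). For Cdkn1b it was −0.46 ± 0.23 (FDR = 0.472), for Cdkn1c 0.28 ± 0.44 (FDR = 0.843) and for Cdkn1a 0.02 ± 0.54 (FDR = 0.99). Over all genes, 0.443% passed this test. On the TPM scale the mean of Cdkn1b was 2.74-fold lower in experiment 1 and 2.53-fold lower in experiment 2, the opposite order. Its values of 0.659 to 2.57 TPM in experiment 1 are low, and the 1 added before the log2 shrinks the fold change there.

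**Figure D2:**
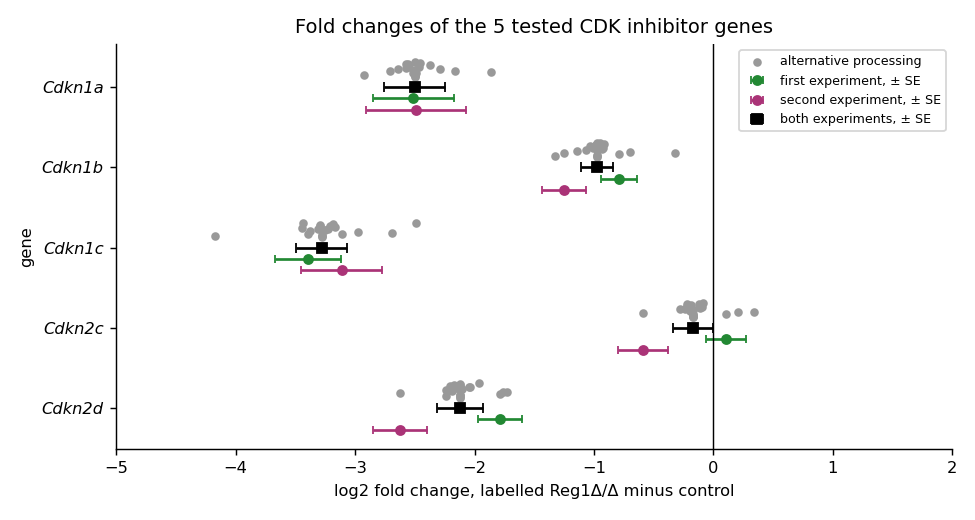
Log2 fold changes on the log2(TPM + 1) scale (horizontal axis) of the 5 tested genes (vertical axis), in both experiments together (black squares), in each experiment (colored circles, both with SE) and under each alternative processing (gray points). The gray points of Cdkn1a stay between −2.93 and −1.86 and those of Cdkn2d between −2.62 and −1.73, those of Cdkn1b reach from −1.33 to −0.32, and those of Cdkn2c lie on both sides of 0.

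The genes have several transcripts, and 10 of the 18 member transcripts passed the filter. Of these, 7 were lower and none higher (14.9% of the 31937 tested transcripts were lower). The TPM of a transcript is an estimate by Salmon that divides reads shared by overlapping transcripts. In these data the division differed between the experiments. In the controls of experiment 1 71.4% of Cdkn1a TPM was from Cdkn1a-202, which begins at the upstream start at 29090979 beside the p53 response element shown above, and 26.3% from Cdkn1a-201, which begins at the downstream start at 29093769. In the controls of experiment 2 these shares were 10.6% and 89.4%. Cdkn1a-201 was at 2.67, 7.43, 3.44, 16.8 and 17.1 TPM in the controls and at 0.923, 0.608, 1.06, 2.96 and 1.69 in the Reg1Δ/Δ-labelled libraries. Cdkn1a-202 was at 8.02, 19.2, 9.53, 4.03 and 0 TPM in the controls and at 1.44, 0.51, 1.49, 0 and 0.476 in the Reg1Δ/Δ-labelled libraries. The groups did not overlap for Cdkn1a-201 in either experiment, and overlapped for Cdkn1a-202 in experiment 2. Both fell, with log2 fold changes of −1.87 for Cdkn1a-201 (limma FDR = 0.00148) and −1.895 for Cdkn1a-202 (FDR = 0.0265), so that transcripts of both starts were lower. The call of Cdkn1a-202 was lost with no filter, a pseudocount of 0.1, no covariate and the replicate block (FDR = 0.0776 to 0.209), and that of Cdkn1a-201 with no covariate (FDR = 0.0638).

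For Cdkn1c, the retained-intron transcript Cdkn1c-204 made up 60.5% of the TPM in the controls of experiment 1 and was listed at 0 in all libraries of experiment 2. It was at 11.9, 11.9 and 10.4 TPM in the controls of experiment 1 and at 0.758, 0.357 and 0.805 in the Reg1Δ/Δ-labelled libraries. The main coding transcript Cdkn1c-201 was at 4.85, 3.49, 2.42, 8.07 and 17.9 TPM in the controls and, in the Reg1Δ/Δ-labelled libraries, under 0.0001 TPM in experiment 1 and at 0.468 and 0 in experiment 2. It fell by 2.67 on the log2 scale (limma FDR = 0.000349), and the coding Cdkn1c-205 fell by 1.87 (FDR = 0.000184). The p57 primers match neither Cdkn1c-204 nor Cdkn1c-205. Summed over the 3 transcripts that the primers match, the TPM was 5.95, 5.48, 4.10, 8.07 and 17.9 in the controls and 0.253, 0.211, 0.223, 0.468 and 1.58 in the Reg1Δ/Δ-labelled libraries. These did not overlap, and the log2 difference was −2.49 (exact permutation p = 0.0167).

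Cdkn1b, Cdkn2c and Cdkn2d showed the same kind of difference between the experiments. Of Cdkn1b TPM in the controls, Cdkn1b-201 had 7.95% in experiment 1 and 78.7% in experiment 2, and the longer Cdkn1b-202 had 72.4% and 21%. Cdkn1b-202 fell by 1.10 on the log2 scale (limma FDR = 0.00531). Of Cdkn2d TPM in the controls, Cdkn2d-201 had 73.8% and 38.3% and Cdkn2d-203 had 2.46% and 61.7%, and both fell, by 2.67 (FDR = 0.00135) and by 1.19 (FDR = 0.0473). The call of Cdkn2d-203 was lost with no filter (FDR = 0.118), a pseudocount of 0.1 (0.204), no covariate (0.782) and the replicate block (0.0646), and those of Cdkn2d-201 (0.0914) and Cdkn1b-202 (0.168) with no covariate. Cdkn2d-202, at 10.9 and 2.91 TPM as means of experiment 1 and 0 in experiment 2, had a log2 fold change of −0.94 (FDR = 0.0533). Neither Cdkn2c-201 (−0.41, FDR = 0.244) nor Cdkn2c-202 (−0.04, FDR = 0.879) passed the test. The libraries as a whole differed in the same respect, with 46.2% to 49.1% of TPM on protein-coding transcripts and 9.28% to 10.3% on retained introns in experiment 1, and 73.5% to 81.1% and 3.17% to 3.97% in experiment 2. With protein-coding transcripts only, rescaled to the same total in each library, the members that were lower were again the 4 named above, with log2 fold changes of −2.70 for Cdkn1a, −1.14 for Cdkn1b, −3.38 for Cdkn1c and −2.19 for Cdkn2d.

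**Figure D3:**
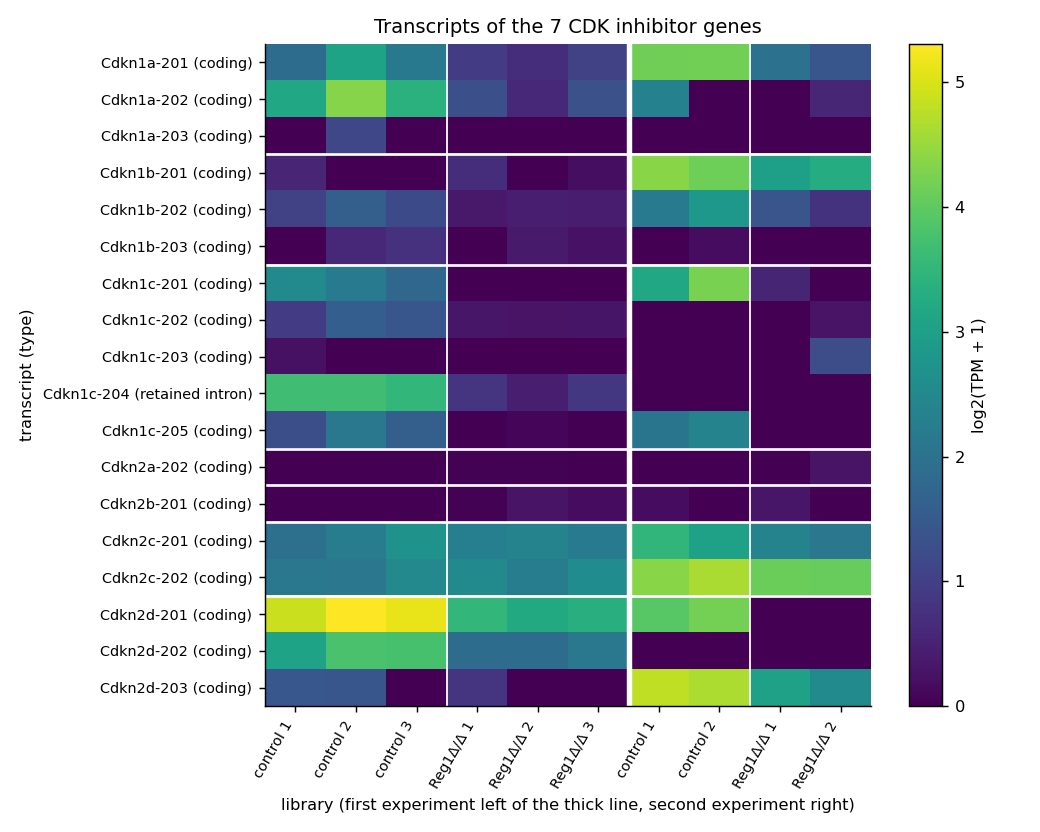
Log2(TPM + 1) (color) of the 18 transcripts of the 7 genes (rows, with the transcript type) in the 10 libraries (columns, experiment 1 left of the thick line and the second right of it). Cdkn1a-202, Cdkn1c-204 and Cdkn2d-201 are bright in the controls of experiment 1, and Cdkn1a-201, Cdkn1b-201, Cdkn1c-201 and Cdkn2d-203 in those of experiment 2.

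TPM is corrected for length, so levels can be ranked between the genes. In the controls of experiment 1 the order of mean TPM was Cdkn2d (45.8), Cdkn1c (18.9), Cdkn1a (17.1), Cdkn2c (7.86), Cdkn1b (2.03), and then Cdkn2b and Cdkn2a at 0. Cdkn1c and Cdkn1a overlapped in their values, and the other neighbors above 0 did not. In the controls of experiment 2 the order was Cdkn2d (41.4), Cdkn2c (30.4), Cdkn1b (23.0), Cdkn1a (19), Cdkn1c (16.7), Cdkn2b (0.067) and Cdkn2a (0). Cdkn1a and Cdkn1c overlapped here too, as did Cdkn2b and Cdkn2a. In the Reg1Δ/Δ-labelled libraries of experiment 1 Cdkn2d (12.5) was followed by Cdkn2c (8.38), Cdkn1a (2.01), Cdkn1c (0.893) and Cdkn1b (0.739), of which the last pair overlapped. In those of experiment 2 Cdkn2c (19.8) came before Cdkn1b (9.09), Cdkn2d (5.99), Cdkn1a (2.57) and Cdkn1c (1.02), and no neighbors of these overlapped.

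Within the families the shares shifted with the unequal falls. The TPM of the 3 Cip/Kip genes together was 31.5 to 51.1 in the controls and 2.42 to 4.27 in the Reg1Δ/Δ-labelled libraries of experiment 1, and 55.3 to 62.0 and 12.1 to 13.2 in experiment 2. Cdkn1b, which fell the least of the 3, took 4.91% to 6.26% of this sum in the controls and 15.5% to 27.3% in the Reg1Δ/Δ-labelled libraries of experiment 1, and 36.7% to 42% and 71.7% in experiment 2. Cdkn1c took 40.6% to 61.2% and then 23.7% to 26.4% in experiment 1, and 20.4% to 35.6% and then 3.86% to 11.9% in experiment 2. Cdkn1a took 33.9% to 54.4% and 46.3% to 60.2% in experiment 1, where the groups overlapped, and 27.6% to 37.6% and 16.4% to 24.5% in experiment 2. The TPM of the 4 Ink4 genes together was 44.1 to 60.1 and 19.1 to 22.6 in experiment 1 and 71.0 to 72.7 and 24 to 28.1 in experiment 2. Cdkn2d took 82% to 88.2% of this sum in the controls and 57.4% to 61.6% in the Reg1Δ/Δ-labelled libraries of experiment 1, and 57.2% to 58% and 19.7% to 25.8% in experiment 2. Cdkn2c made up nearly all of the rest, with 38.3% to 41.3% and 73.3% to 79.4% in the Reg1Δ/Δ-labelled libraries.

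**Figure D4:**
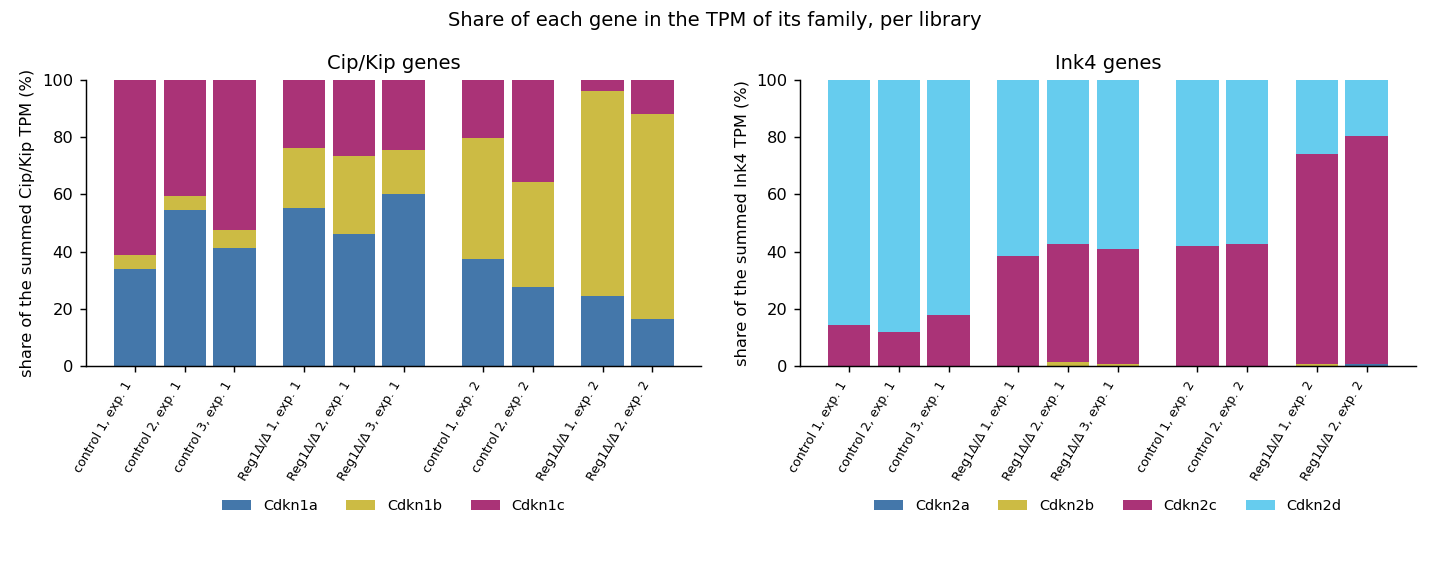
Share of each gene in the summed TPM of the Cip/Kip genes (left) and of the Ink4 genes (right) in percent (vertical axes), with a bar for each library (horizontal axes). In both experiments the Cdkn1b share is larger and the Cdkn1c share smaller in the Reg1Δ/Δ-labelled libraries, and the Cdkn2c share is larger and the Cdkn2d share smaller.

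The cyclins and CDKs that these inhibitors act on moved unequally. Of 10 such genes, all tested, 3 were lower and 2 higher, with a median log2 fold change of 0.18. Of all tested genes 37.9% were lower and 15% higher, with a median of −0.255. Cdk4 and Cdk6, the kinases that Ink4 proteins bind, did not pass the test, at 726 ± 77.3 and 824 ± 79.5 TPM (SD, n = 5; log2 fold change 0.18, limma FDR = 0.185) and at 65.7 ± 13.9 and 63.7 ± 8.75 TPM (−0.03, FDR = 0.868). Of the D cyclins, Ccnd3 was at 666 ± 294 TPM in the controls and 215 ± 120 in the Reg1Δ/Δ-labelled libraries and fell by 1.75 on the log2 scale (FDR = 3.29e-05). Ccnd2 fell by 0.50 (FDR = 0.0178), and Ccnd1, at 4.39 ± 3.32 and 5.26 ± 3.35 TPM, did not pass the test (0.26, FDR = 0.44), but was higher with quantile normalization (1.11, FDR = 0.00962). Of the partners of Cip/Kip proteins, Ccne1, which encodes cyclin E1, rose from 32.4 ± 15 to 87.8 ± 16.4 TPM (1.52, FDR = 0.000369), and Cdk2 fell from 52.6 ± 5.09 to 39.6 ± 4.52 TPM (−0.40, FDR = 0.00616). Ccne2 was at 20.3 ± 8.64 and 21.9 ± 3.38 TPM (0.18, FDR = 0.33), and was higher with quantile normalization (0.54, FDR = 0.043), with median-of-ratios scaling (0.58, FDR = 0.0128) and in experiment 1 alone (0.42, FDR = 0.0368). The call of Cdk2 and its direction were lost with median-of-ratios scaling, at 0.008, and the call of Ccnd2, at −0.09. With that scaling 1 gene of the list, against 3, was lower and 6 were higher, among them Cdk4 (0.60) and Cdk6 (0.39). The call of Cdk2 was also lost in experiment 1 (FDR = 0.0509) and experiment 2 (0.108) alone. That of Ccnd2 was lost without the covariate (0.767) and in experiment 2 alone (0.532). The calls of Ccnd3 and Ccne1 held under both scalings, and that of Ccne1 was lost in experiment 2 alone (0.0552).

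Downstream of the kinases, 13 genes of pocket proteins and E2F factors were all tested, and 5 were lower and 3 higher, with a median of −0.24. Of all tested genes 37.9% were lower and 15% higher, with a median of −0.255. The share lower and the median of this list were thus near those of all genes. Rbl2, which encodes the pocket protein p130 of resting cells, fell from 26.8 ± 5.58 to 11.1 ± 1.59 TPM (−1.19, limma FDR = 0.000216). E2f5, a partner of the pocket proteins, fell by 1.10 (FDR = 0.000989), and the log2 fold change of the activator E2f2 was −0.998 (FDR = 0.00729). The call of E2f2 was lost with median-of-ratios scaling (FDR = 0.0512), without the covariate (0.37) and in experiment 1 (0.0846) or experiment 2 (0.0795) alone. With quantile normalization the calls of E2f2 and E2f5 were lost, and 1 gene of the list was lower and 6 higher. Of 17 proliferation genes, all tested, 9 were higher and none lower (11 and 0 at an unadjusted p under 0.05), with a median of 0.31. The 3 largest rises were in Plk1, a mitotic kinase (46.6 ± 18.8 to 75.8 ± 17.3 TPM, FDR = 0.00269), Rrm2, a subunit of ribonucleotide reductase (119 ± 29.5 to 181 ± 32.6 TPM, FDR = 0.0252), and Cdc20, an activator of the anaphase-promoting complex (129 ± 34.3 to 191 ± 72.0 TPM, FDR = 0.0149). The call of Rrm2 was lost without Reg1Δ/Δ replicate 1 (FDR = 0.0571) or 3 (0.0591) of experiment 1, with no filter (0.0658) and with quantile normalization (0.0652). Without the covariate none of the 17 was higher (3 at an unadjusted p under 0.05), with quantile normalization 3 and with median-of-ratios scaling 15. In experiment 2 fitted alone none was (5 at an unadjusted p under 0.05).

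**Figure D5:**
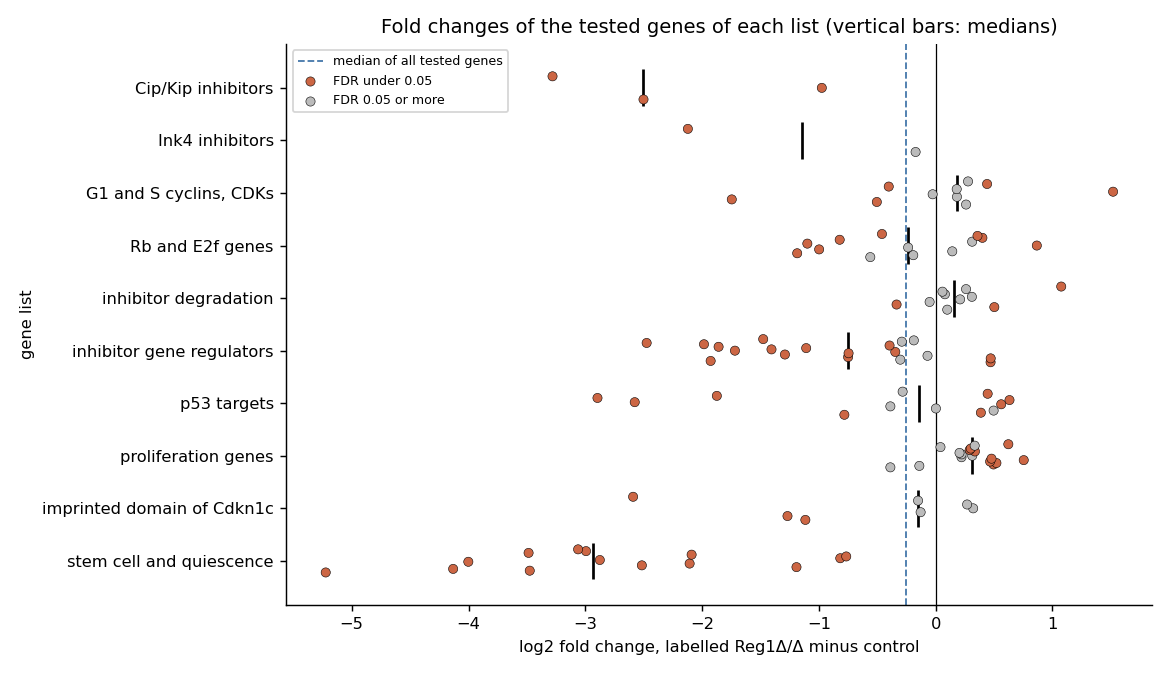
Log2 fold changes (horizontal axis) of the tested genes of each list (vertical axis), in orange where the FDR was under 0.05 and gray otherwise, with the median of the list as a black bar and that of all tested genes, −0.255, as a dashed line. The Cip/Kip inhibitors and the genes of quiescent stem cells lie left of the dashed line, while the cyclins, the degradation genes and the proliferation genes lie mostly to its right.

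Cip/Kip proteins are removed by ubiquitin ligases, and 10 genes for parts of these were tested. Of these, 1 was lower and 2 higher, with a median of 0.15 (37.9% and 15% of all tested genes, with a median of −0.255). Skp2, which recognizes p27, was at 11.6 ± 3.94 and 12.2 ± 2.17 TPM (SD, n = 5; 0.10, limma FDR = 0.593), and was higher with quantile normalization (0.66, FDR = 0.014) and with median-of-ratios scaling (0.48, FDR = 0.0213). Its cofactor Cks1b rose from 217 ± 31.6 to 313 ± 75.1 TPM (0.50, FDR = 0.0103). This call was lost without the covariate (0.0934) and in experiment 2 alone (0.47). Ubac1, a subunit of the ligase that degrades p27 in G1, rose from 90.2 ± 25.1 to 197 ± 73.7 TPM (1.07, FDR = 0.000275, and 0.0598 in experiment 2 alone). Skp1a, an adaptor of the Skp2 ligase, fell by 0.33 (FDR = 0.0225). Its call was lost without Reg1Δ/Δ replicate 2 of experiment 2 (0.0557), without the covariate (0.288) and in experiment 1 (0.143) or experiment 2 (0.0817) alone. With median-of-ratios scaling none was lower, Skp1a was at 0.08, and 9 of 10 were higher.

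Of 20 genes that encode regulators of the inhibitor genes, 19 were tested, and 13 fell and 2 rose, with a median of −0.75. Among all tested genes 37.9% fell and 15% rose, and the median was −0.255. Trp53, which encodes the activator of Cdkn1a, rose from 224 ± 39.9 to 309 ± 41.7 TPM (0.47, limma FDR = 0.00401), the direction opposite to that of Cdkn1a. The call of Trp53 was lost without the covariate (FDR = 0.0613) and in experiment 2 alone (0.0892). Foxo1, a factor known to activate Cdkn1b, fell by 1.93 (FDR = 4.46e-05), while Foxo3 was at 11.7 ± 13.8 and 8.28 ± 9.34 TPM (−0.30, FDR = 0.0756). The direction of Foxo3 turned with quantile normalization (0.44), and without Reg1Δ/Δ replicate 3 of experiment 1 it passed the test (−0.38, FDR = 0.0337), as it did with protein-coding transcripts only (−0.35, FDR = 0.039). Gfi1, a repressor that restrains stem cell proliferation, fell by 1.98 (FDR = 0.000349), and Egr1, an immediate-early factor, which was at 32.8 ± 55.3 TPM in the controls, by 2.47 (FDR = 0.0123). Without control replicate 2 of experiment 1 the fold change of Egr1 was −1.715, and its call was lost with quantile normalization (FDR = 0.0895) and in experiment 1 alone (0.0582). Bmi1, the polycomb protein that silences Cdkn2a, fell from 58.7 ± 17.9 to 34.4 ± 10.6 TPM (−0.75, FDR = 0.0107). This call was lost with median-of-ratios scaling (−0.34, FDR = 0.165), without the covariate (0.0644) and in experiment 2 alone (0.283). With quantile normalization 6 of the 19 regulators were lower and with median-of-ratios scaling 10.

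Other p53 target genes did not move together. Of 15 such genes 12 were tested, and 4 fell and 4 rose, with a median of −0.14. Among all tested genes 37.9% fell and 15% rose, with a median of −0.255. Btg2, an antiproliferative gene, fell from 21.2 ± 14.3 to 1.67 ± 0.529 TPM (−2.90, limma FDR = 7.3e-05), Trp53inp1 from 13.7 ± 3.58 to 1.41 ± 0.302 TPM (−2.58, FDR = 3.26e-06) and Plk2 from 6.19 ± 9.10 to 0.226 ± 0.134 TPM (−1.87, FDR = 0.0209). Without control replicate 2 of experiment 1 the fold change of Plk2 was −1.269, and its call was lost with no filter (FDR = 0.072), with quantile normalization (0.186) and in experiment 1 (0.0635) or experiment 2 (0.163) alone. Mdm2, the ligase that degrades p53, fell by 0.78 (FDR = 0.00048). The 4 that rose were Bax, Aen, Ccng1 and Gtse1. With quantile normalization 3 fell and 6 rose.

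Genes of quiescent stem cells, of which 14 of 16 were tested, all fell, with a median of −2.94, against 37.9% of all tested genes. Among the 14 were Hlf (117 ± 55.8 to 1.87 ± 0.882 TPM, limma FDR = 3.71e-06) and Procr (28.9 ± 6.62 to 0.72 ± 0.455 TPM, FDR = 7.05e-07). Hlf is a transcription factor of stem cells and Procr a receptor used to sort them. Under both scalings 12 or more of the 14 stayed lower.

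The genes whose pattern was most like that of each member were found by Pearson's r over the 10 libraries after the mean of each experiment was removed, among 7316 protein-coding genes with a mean of at least 10 TPM. Since the libraries form a control and a labelled Reg1Δ/Δ cluster, r mostly measures the difference between the groups and is given as a description. Nearest to Cdkn1a were Csrp2 (0.987), Wsb1 (0.986) and Gabpb1 (0.983), nearest to Cdkn1b Bin1 (0.995), Bfsp2 (0.991) and Btg1 (0.99), and nearest to Cdkn1c Pld3 (0.996), Maged2 (0.996) and Msra (0.995). Nearest to Cdkn2d were Cd79b (0.996), Trim12a (0.994) and Retreg1 (0.993), of which Cd79b is a B-lineage marker (90.2 ± 36.2 to 3.77 ± 1 TPM). The numbers of genes with r over 0.95 were 240, 130, 569 and 337 for these 4 members. Cdkn2c had none, the nearest being the histone chaperone Asf1b (0.88), the ribosomal protein gene Rpl3 (0.855) and Alkbh3 (0.855).

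Replicate 1 of the controls of experiment 1 had the lowest B-lineage sum of the controls. Without it the number of members called lower was again 4. Their fold changes relative to the median of all genes were −2.41 for Cdkn1a, −0.83 for Cdkn1b, −3.03 for Cdkn1c and −2.01 for Cdkn2d. That fit keeps the controls with the higher B-lineage sums, so it cannot test the part of B-lineage cells in the falls. The deposited values of replicate 2 of the Reg1Δ/Δ-labelled libraries of experiment 2 carried the name of replicate 1 in their header. Without this library the number was 4 as well, with −2.20, −0.69, −3.17 and −1.71.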

How the data were processed

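Per the labels and the study's methods, RNA of sorted CD34- HSCs was amplified with a SMART-Seq kit (the sources name different versions), sequenced as paired reads and mapped to GRCm38 with STAR, and TPM was estimated by the authors with Salmon 0.9.1 and GENCODE M17. The authors deposited log2(TPM + 1) per transcript, a value on the log2 scale. TPM was calculated back as 2 raised to the value, less 1, and summed over the transcripts of a gene. Read numbers cannot be had from TPM, the depth of a sample is unknown, and no count model, interval or detection limit is given.

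Genes at 1 TPM or more in 5 or more of 10 samples were fitted on log2(TPM + 1) with limma 3.58.1 (lmFit, eBayes, R 4.3.3), the experiment being a covariate, and transcripts likewise. Benjamini-Hochberg adjustment (FDR) ran over all tested genes or transcripts, with a threshold of 0.05. Members were also tested by exact two-sided permutation of the samples within experiments. The difference between experiments was an interaction term. The samples are individual mice per the labels.

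The members and gene lists were chosen with earlier results of these data known. Beside the members, the text names the 3 called genes of largest change per list, key cyclins, CDKs and regulators, sort markers, Zc3h12a and the 3 genes most like each member. Not all genes that this rule names are reported here. The other genes named, such as the remaining neighbors of Cdkn1c and the p53 targets that rose, were chosen after their values were seen. Alternatives were a fit of all genes, a stricter filter of 1 TPM in each sample, no covariate, a replicate block, a pseudocount of 0.1, median-of-ratios scaling, quantile normalization, experiments fitted separately, protein-coding transcripts only, eBayes with trend and each sample left out. A sum over the transcripts that the primers match was added after seeing the data. Coordinates and transcript sequences are from GENCODE M21 on GRCm38, a later release than the authors'. The form of the p53 motif was fixed after the windows were seen. The study's other experiments were not analysed here.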

Additional observations from a re-analysis of the deposited data

How the results depend on the processing

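The log2 fold changes of Cdkn1a and Cdkn2d kept their direction and their side of the threshold under all 22 and 21 alternatives run for them. With 1 sample left out they were between −2.642 and −2.288 for Cdkn1a, −1.064 and −0.914 for Cdkn1b, −3.447 and −3.166 for Cdkn1c, −0.282 and −0.091 for Cdkn2c and −2.237 and −1.963 for Cdkn2d, the number of members called lower was 4 in each of these 10 fits, and over all genes 4409 to 5242 were lower and 1548 to 1961 higher.

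Cdkn1b lost its call without the covariate (−0.975) and with quantile normalization (−0.323), and Cdkn1c in experiment 2 alone (−3.113), where 2 against 2 samples were fitted. Cdkn2c, not called in the fit of both experiments, turned in experiment 1 alone (0.107), with quantile normalization (0.339) and with median-of-ratios scaling (0.210), and passed the threshold in experiment 2 alone (−0.590). With 1 TPM required in each sample 2 members were lower, since 3 were tested, and without the covariate 2 member transcripts were lower, against 7. Genes called lower and higher numbered 3052 and 716 without the covariate, 1581 and 452 in experiment 2 alone, 2636 and 3861 with quantile normalization and 3245 and 4334 with median-of-ratios scaling. The direction turned for Ccnd1 with protein-coding transcripts (−0.093), for Ccne2 in experiment 2 alone (−0.187) and for Cdk6 there (0.135). With median-of-ratios scaling it turned for Cdk2 (0.008), Cdk6 (0.386), Foxo3 (0.003) and Skp1a (0.083), and with quantile normalization for Cdk6 (0.019) and Foxo3 (0.443). With 1 sample left out, Cdk6 was between −0.103 and 0.033. Of the 47 called genes beside the members that the naming rule gave, 25 lost the call in experiment 2 alone, 7 in experiment 1 alone and 11 without the covariate. Among the 25 were also Kit, Hlf, Rbl2, Gfi1, Mdm2 and Slc22a18. Where no cause is named, the cause was not tested.

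In the replicate block fit, 4545 genes were lower and 1703 higher and the 4 members kept their calls. Whether the numbers pair the samples cannot be told from these values. Same-numbered samples correlated in their deviations from the group means at 0.0334, 0.175 and 0.0683 in experiment 1. Samples of different numbers correlated there at −0.1163 to 0.0613. In experiment 2, with 2 samples per group, same and different numbers gave −0.0544 and 0.0544. These mirror each other by construction and cannot decide it. Low TPM and 2 samples per group limit what can be said of Cdkn2a, Cdkn2b and experiment 2. Gene lists were not refitted with samples left out.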
